A study of Mus musculus with 622 samples.

Results

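Krt7, Krt8, Krt18 and Krt19 encode the simple epithelial keratins, and their RNA was followed here through single cells of mouse pancreatic islets. These 4 genes, of 44448 in the deposited table, were picked by name with their levels in these cells already known, so the levels below are a description. The cells came from the islets of wild-type C57BL/6 mice, and each was captured and amplified in its own chamber of a Fluidigm C1 microfluidic chip. No age, sex, treatment or animal is given, so all cells form 1 sample, there is no replicate error, and no test between groups of cells was possible. Of 622 cells, 593 had at least 1000 genes at 1 RPKM or more, where RPKM corrects the reads of a gene for its length and for the reads of that cell. They were grouped by the hormone that held at least 90% of the summed RPKM of Ins1, Ins2, Gcg, Sst and Ppy. This gave 384 insulin cells, 32 glucagon cells, 12 somatostatin cells, 10 cells led by pancreatic polypeptide (PP) and 139 mixed cells in which no hormone reached 90%. A further 16 cells with Tyrobp, a signalling adaptor of myeloid and natural killer cells, at 100 RPKM or more were kept apart.

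Keratins are the intermediate filament proteins of epithelia, and a filament is built from pairs of a type I and a type II chain. Krt7 and Krt8 are type II chains, and Krt18 and Krt19 are type I chains. Krt8 with Krt18 is the standard pair of single-layered epithelia, including the endocrine and acinar cells of the pancreas, whereas Krt7 and Krt19 are commonly used as markers of its ducts. A single keratin chain without a partner of the other type is unstable, so the type I and type II chains present in a cell bear on what filament it can build.

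Krt8 and Krt18 are neighbours although they belong to different types. In the mouse build GRCm38 (mm10), Krt8 (Entrez 16691) lies on chromosome 15 from 101996711 to 102004342 and Krt18 (Entrez 16668) from 102028216 to 102032026, 23874 bases further on, with 2 noncoding genes between them. Krt7 (Entrez 110310) lies on the same chromosome from 101412403 to 101427806, and Krt19 (Entrez 16669) is on chromosome 11 from 100140810 to 100145926, among other type I keratin genes. The promoter windows of the 3 genes found in most cells are shown because these genes differed in how evenly cells held them. Each window runs 5′ to 3′ on the strand of the gene, from 250 bases before to 50 bases after its RefSeq start. Capitals mark TATAAA (the TATA box), GGGCGG (the GC box) and TGANTCA (the AP-1 site), searched on both strands. Krt7 is at chr15:101412153-101412452 on the plus strand, Krt8 at chr15:102004293-102004592 on the minus strand and Krt18 at chr15:102027966-102028265 on the plus strand.
Krt7: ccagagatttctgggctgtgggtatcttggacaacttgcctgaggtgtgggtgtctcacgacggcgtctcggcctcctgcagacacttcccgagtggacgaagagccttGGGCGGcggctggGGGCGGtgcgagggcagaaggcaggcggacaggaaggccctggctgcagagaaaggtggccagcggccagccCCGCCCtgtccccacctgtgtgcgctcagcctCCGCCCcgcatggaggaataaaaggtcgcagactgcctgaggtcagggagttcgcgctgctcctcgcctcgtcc
Krt8: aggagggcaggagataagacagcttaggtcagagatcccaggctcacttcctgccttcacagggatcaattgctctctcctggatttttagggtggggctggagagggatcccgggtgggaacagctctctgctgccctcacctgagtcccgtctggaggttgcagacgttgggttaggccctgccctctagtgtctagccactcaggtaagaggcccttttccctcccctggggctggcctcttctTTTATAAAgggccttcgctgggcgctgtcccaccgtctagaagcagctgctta
Krt18: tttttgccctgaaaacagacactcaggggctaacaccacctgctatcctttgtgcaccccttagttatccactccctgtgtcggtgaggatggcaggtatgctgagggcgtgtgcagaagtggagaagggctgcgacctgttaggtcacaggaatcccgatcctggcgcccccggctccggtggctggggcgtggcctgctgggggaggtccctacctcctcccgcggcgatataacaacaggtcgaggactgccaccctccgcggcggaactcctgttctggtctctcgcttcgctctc

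The Krt7 window held 4 matches to the GC box and none to the TATA box. The Krt8 window held 2 overlapping matches to the TATA box, read on opposite strands, at the annotated start itself. Neither motif was matched in the Krt18 window, and the AP-1 site was matched in none of the 3. Among all 32851 promoter windows in the RefSeq table, 13.6% held TATAAA, 35.7% held GGGCGG and 7.81% held TGANTCA. The G and C content was 66.3% for Krt7, 58.0% for Krt8 and 61.3% for Krt18, against a median of 52.7% over all windows. A match describes letters and not a bound site.

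Depth differed between 2 sets of columns that the labels do not mention, 359 with unrounded values (full precision in the plots) and 263 cut to 4 decimals (called rounded below). Recovered reads had a median of 1098998 per cell over the 593 cells, with 806946 in the unrounded and 1608014 in the rounded columns, while the median number of detected genes was 5823 and 4148. At the overall median depth, 1 RPKM corresponded to 2.06 reads of Krt7, 1.98 of Krt8 and 2.01 of Krt18. Keratin values are therefore given within each set wherever the sets part. Beta-cell markers were at least 2-fold lower in glucagon than in insulin cells for 8 of 8 compared, and alpha-cell markers higher for 5 of 5. Among all genes compared, 21.5% were lower and 11.6% higher by that measure. The marker lists include Ins1, Ins2 and Gcg, which define these classes, so part of both counts was fixed in advance. In the PP class, islet cell 59 held Col1a2 at 1325 RPKM and Sparc at 2544 RPKM, genes of connective tissue cells. In the same class islet cell 295 held Sox10, a gene of glial cells, at 40.2 RPKM, and hormones made up only 4.01% and 5.14% of RPKM in cells 295 and 591. Of the 16 Tyrobp cells, 9 drew 10% or more of their RPKM from islet hormones. No doublet caller was run, and whether mixed or Tyrobp cells are doublets was not tested.

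Krt7 had the highest mean of the 4 keratins over all insulin cells, though in the 161 rounded ones Krt18 had a mean of 78.0 RPKM against 74.1 for Krt7 and was found more often, in 87.0% against 83.2%. Among these 384 cells Krt7 ranged from 0 to 818 RPKM with a median of 57.4 and a mean of 90.8. It reached 1 RPKM in 351 of them, or 91.4% (95% interval 88.1 to 94.0, exact by Clopper-Pearson), and 100 RPKM in 128. Intervals cover counting error only, because amplified reads are not independent molecules. The middle 50% of insulin cells lay between 17.9 and 127 RPKM, and 20 cells were listed at 0. The unrounded columns had Krt7 in 97.3% of 223 insulin cells with a median of 82.6 RPKM, and the rounded columns in 83.2% of 161 with a median of 29.5 RPKM. With each cell thinned to 250000 reads, at least 1 Krt7 read was left in 98.6% and 80.6% of the cells of these sets. Thinning made the reads equal but not the number of detected genes, and the cause of the gap was not tested.

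In the glucagon cells Krt7 was present in most cells but at a low level. The 32 glucagon cells ran from 0 to 126 RPKM with a median of 7.45 and a mean of 25.4, and 27 of them reached 1 RPKM, a share of 84.4% (67.2 to 94.7). The classes overlapped across almost the whole range of the glucagon cells, yet only 2 glucagon cells passed 100 RPKM. The mean was 3.48-fold lower than in insulin cells on the scale of RPKM plus 1, a log2 ratio of -1.80, with -2.16 in the unrounded and -1.33 in the rounded columns. Among 7456 genes with a mean of 5 RPKM or more in either class, 21.5% were at least 2-fold lower in glucagon cells, and 8.36% lay below Krt7. The median log2 ratio of all these genes was -0.14. Thinned to equal depth, Krt7 kept at least 1 read in 24 of 31 glucagon cells, 77.4% (58.9 to 90.4), against 346 of 380 insulin cells, 91.1% (87.7 to 93.7). The sets went opposite ways, with 68.8% of glucagon and 98.6% of insulin cells in the unrounded columns but 86.7% and 80.6% in the rounded ones. The unthinned shares did the same, with 76.5% and 97.3% in the unrounded but 93.3% and 83.2% in the rounded columns, so no order of the shares held in both sets.

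**Figure D1:**
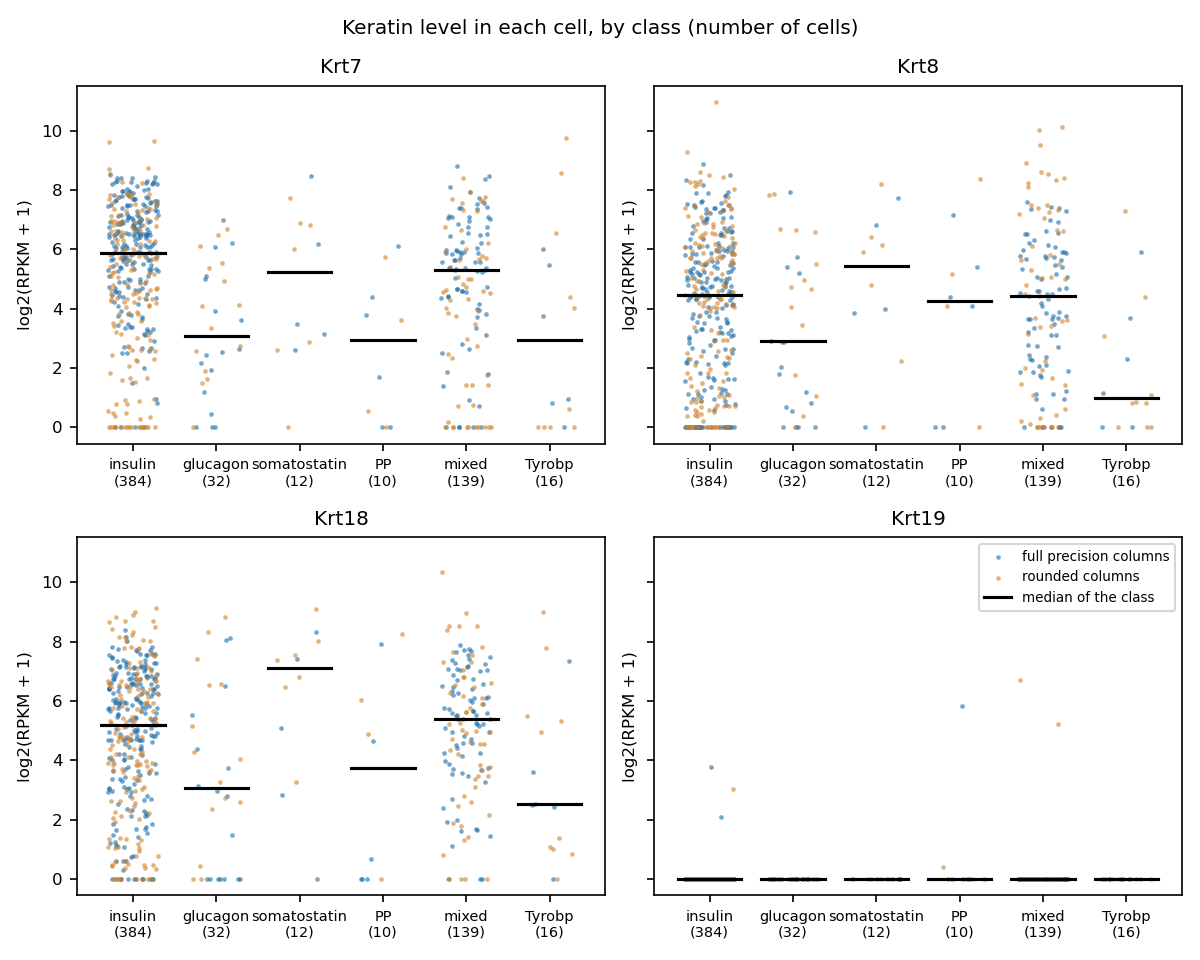
Level of each keratin in every cell as log2(RPKM + 1), by class, with the number of cells under each class; blue points are unrounded columns, orange points rounded columns and black lines class medians. Krt7, Krt8 and Krt18 span a wide range from 0 upward in the insulin, glucagon and mixed cells, and Krt19 leaves 0 in only 7 cells.

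Ordered by mean, Krt7 stood at 94.1 RPKM in Tyrobp cells, 90.8 in insulin, 80.7 in somatostatin, 66.3 in mixed, 25.4 in glucagon and 16.8 in PP cells. The first place rested on 2 Tyrobp cells at 871 and 385 RPKM, both with 30% or more of their RPKM in hormones, and by median these cells stood at 6.69 RPKM. In the 7 Tyrobp cells with under 10% of RPKM in hormones, a split chosen after the data were seen, Krt7 ranged from 0 to 0.934 RPKM and reached 1 RPKM in 0 cells (limit 42.9%, from 3 counts of the total). The 12 somatostatin cells ran from 0 to 354 RPKM with a median of 37.1, inside the middle range of all insulin cells. The sets parted, with a median of 10.3 RPKM in the 5 unrounded and 64.0 in the 7 rounded cells. The first was below the quartile range of unrounded insulin cells, 31.1 to 144 RPKM. The second lay inside that of rounded insulin cells, 5.28 to 98.1 RPKM. In 4 of the 12 somatostatin cells Krt7 passed 100 RPKM and in 5 it was under 10, so this class held low and high cells with few between. The 10 PP cells ran from 0 to 68.3 RPKM with a median of 6.79, with a log2 ratio to insulin cells of -2.37. In that class 28.0% of the 7595 genes compared were at least 2-fold lower and 20.3% higher. Without the 3 PP cells of doubtful type, the other 7 had Krt7 between 0 and 68.3 RPKM. The quartile ranges of neighbouring classes in this order overlapped for every pair.

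Duct markers were looked at beside Krt7, since Krt7 is used as one. Of the 351 insulin cells with Krt7 at 1 RPKM, 3 also had Sox9, a transcription factor of duct cells, at 1 RPKM, 3 had Krt19, 2 had Car2, the carbonic anhydrase of ducts, and 0 had Cftr, the chloride channel of duct cells. Spp1, the secreted protein osteopontin, reached 1 RPKM in 134 of them. Onecut1 was at 0 in every insulin cell. Summed over the 15 duct markers, the median was 36.6 RPKM in unrounded insulin cells with Krt7 (range 0 to 6470) and 9.95 in the 6 without it (range 0 to 81.7). In the rounded columns the medians were 16.3 and 4.12 RPKM. Acinar markers were near 0 in the same cells, with a median sum of 0.729 RPKM over 19 genes and a highest sum of 321.

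Krt8, the type II partner of Krt18, was the most uneven of the 3 keratins found in most insulin cells. Among the 384 insulin cells it ranged from 0 to 2002 RPKM with a median of 20.9 and a mean of 57.4, and 310 cells reached 1 RPKM, a share of 80.7% (76.4 to 84.6). The 39 insulin cells with the most Krt8 held 52.4% of the Krt8 RPKM of the class, and the 39 highest cells held 35.5% for Krt7 and 41.0% for Krt18. Its coefficient of variation was 224%, which ranked 27 of the 486 genes with a mean between 50 and 100 RPKM, whose median was 138%. That value leaned on 1 cell: without islet cell 450 it was 155%, and it was 148% in the unrounded and 254% in the rounded columns. Krt7 with 113% ranked 381 and Krt18 with 129% ranked 296, below the median of that band over all insulin cells, though in the rounded columns alone their coefficients were 158% and 147%. In each set Krt8 had the highest coefficient of the 3, with 87.3% for Krt7 and 103% for Krt18 in the unrounded columns. The share of insulin cells with Krt8 was 83.9% in the unrounded and 76.4% in the rounded columns, with medians of 21.0 and 19.5 RPKM. The cell at 2002 RPKM, islet cell 450, had Krt7 at 0 and drew 68.0% of its RPKM from hormones.

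By class the mean of Krt8 was 74.4 RPKM in somatostatin cells, 73.5 in mixed, 60.0 in PP, 57.4 in insulin, 41.2 in glucagon and 16.5 in Tyrobp cells. In the unrounded columns mixed and PP cells had lower means than insulin cells, 36.2 and 36.8 against 47.9 RPKM. In the rounded columns they had higher means, 129 and 94.8 against 70.5 RPKM. The mixed cells include islet cell 440 with Krt8 at 1128 RPKM. The 32 glucagon cells ran from 0 to 246 RPKM with a median of 6.47, and 23 reached 1 RPKM, a share of 71.9% (53.3 to 86.3). The order of the shares differed between the sets, with 58.8% of glucagon and 83.9% of insulin cells in the unrounded columns but 86.7% and 76.4% in the rounded ones. The log2 ratio of glucagon over insulin cells was -0.47, with -0.98 in the unrounded and -0.21 in the rounded columns. The somatostatin cells ran from 0 to 296 RPKM with a median of 43.0, and 10 of 12 reached 1 RPKM. In the PP cells Krt8 ran from 0 to 328 RPKM with a median of 18.1. The 7 Tyrobp cells with few hormones had Krt8 between 0 and 3.99 RPKM, and the 9 with more had a median of 7.43 RPKM and a highest value of 157. The median of all 16 Tyrobp cells was 0.966 RPKM. Only the Tyrobp class was more than 2-fold lower than insulin cells, with a log2 ratio of -1.74, where 24.0% of the genes compared were at least 2-fold lower and 24.6% higher.

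Reads were also assigned to a pseudogene of Krt8. Krt8-ps, which lies on chromosome 7 from 23357094 to 23358779, inside the span of Nlrp4e, reached 1 RPKM in 115 insulin cells, and 112 of these also had Krt8. The share of cells with Krt8-ps was 4.05% of 74 insulin cells with Krt8 under 1 RPKM, 17.8% from 1 to 10, 34.7% from 10 to 100 and 62.3% of 61 cells over 100 RPKM. It held 1.34% of the summed RPKM of both genes in insulin cells. Reads of near-identical copies can be split by the counting, so values of Krt8-ps are uncertain, and adding them to Krt8 moved its share of insulin cells to 83.1%.

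Krt18, the only type I chain at more than trace level, was found about as often as Krt7. Insulin cells ranged from 0 to 569 RPKM with a median of 35.7 and a mean of 69.1, and 345 reached 1 RPKM, a share of 89.8% (86.4 to 92.7). The sets differed little here, with 91.9% and a median of 42.1 RPKM in the unrounded and 87.0% and 28.7 RPKM in the rounded columns. In the 32 glucagon cells Krt18 ran from 0 to 460 RPKM with a mean of 61.4 but a median of only 7.27, and 22 cells reached 1 RPKM, a share of 68.8% (50.0 to 83.9), with 58.8% in the unrounded and 80.0% in the rounded columns. The log2 ratio of the means was -0.17, and its sign differed between the sets, -0.52 and 0.07. The mean and the median thus part in this class: 5 of 32 glucagon cells passed 100 RPKM and 9 were listed at 0.

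Somatostatin cells had the highest mean Krt18 of any class, with 107 RPKM in the unrounded and 195 in the rounded columns. They ran from 0 to 545 RPKM with a median of 138 and a mean of 158, and 7 of the 12 passed 100 RPKM. The log2 ratio over insulin cells was 1.18. Of the 7730 genes compared, 25.8% were at least 2-fold higher and 24.6% lower in somatostatin cells, so a difference of this size was common. Medians were 33.0 RPKM in the 5 unrounded and 165 RPKM in the 7 rounded cells. The first of these was below the median of unrounded insulin cells, so the lead by median rested on the rounded cells. No keratin of the mixed cells with a mean over 5 RPKM was 2-fold from insulin cells, where 1.76% of genes compared were at least 2-fold lower and 5.91% higher. For Krt18 the mixed cells stood at a mean of 79.7 RPKM and a median of 40.6, and 131 of 139 reached 1 RPKM, a share of 94.2% (89.0 to 97.5). PP cells ran from 0 to 304 RPKM with a median of 12.4, and 5 of 10 reached 1 RPKM. In the Tyrobp cells the median was 4.72 RPKM, and the highest value, 508 RPKM, was in islet cell 423, where hormones made up 0.199% of RPKM and Krt7 and Krt8 were at 0. Unlike Krt7 and Krt8, Krt18 had a similar median in the 7 Tyrobp cells with few hormones and the 9 with more, 4.80 and 4.65 RPKM. It reached 1 RPKM in 4 of these 7 and 8 of these 9 cells. By mean the order was somatostatin, mixed, insulin, PP, Tyrobp and glucagon. The quartile ranges of neighbouring classes in this order overlapped for every pair. Below the mixed cells the order differed between the sets. PP cells had 44.6 against 62.7 RPKM in insulin cells in the unrounded columns, but 99.4 against 78.0 in the rounded ones.

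**Figure D2:**
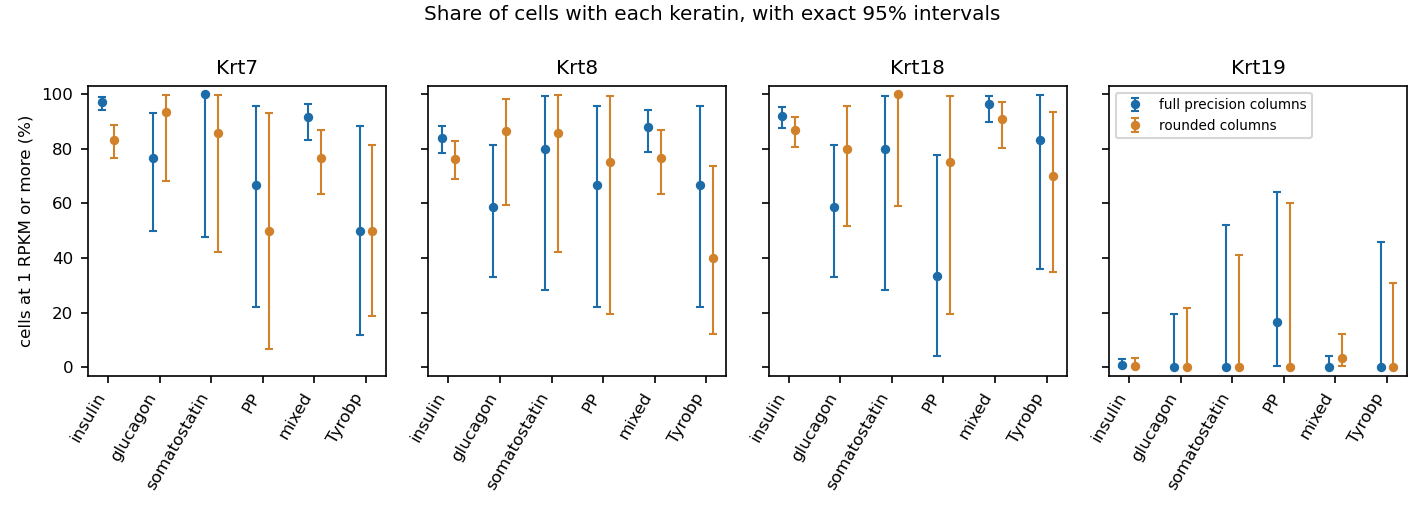
Share of cells at 1 RPKM or more for each keratin (y axis, percent) by class, with exact 95% intervals, for unrounded columns (blue) and rounded columns (orange). The intervals of the small classes span most of the axis, and Krt7 in insulin cells stands at 97.3% and 83.2% in the sets.

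Krt19 was close to absent. It reached 1 RPKM in 3 of 384 insulin cells, a share of 0.781% (0.161 to 2.27), with a highest value of 12.6 RPKM, and in 2 of 139 mixed cells at 36.3 and 102 RPKM. It was listed at 0 in all 32 glucagon cells (limit 9.38%), all 12 somatostatin cells (limit 25.0%) and all 16 Tyrobp cells (limit 18.8%). Of the 10 PP cells, 1 stood at 56.2 RPKM and another at 0.317 RPKM. No ratio is given against classes at 0. Thus the type I chain usually set beside Krt7 in ducts was missing from almost every cell that held Krt7 RNA.

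The 7 cells with any Krt19 differed from each other. Islet cell 310, an insulin cell with Krt19 at 3.28 RPKM, also had Sox9 at 79.9, Muc1, a membrane mucin, at 92.4, Car2 at 64.6 and Spp1 at 5281 RPKM, with 10.4% of its RPKM in hormones. Islet cell 351 had Krt19 at 12.6, Spp1 at 4041 and Prom1 at 54.3 RPKM, with Sox9 at 0. The third insulin cell, 613, had Krt19 at 7.18 RPKM and Ambp, also on the duct list, at 58.0 RPKM, with Sox9 and Spp1 at 0. The highest Krt19, 102 RPKM, was in islet cell 440, together with Krt8 at 1128, Krt18 at 494, Muc1 at 121 and Sox9 at 7.94 RPKM. That cell held the digestive enzyme genes Prss2 at 81906 and Cpa1 at 1740 RPKM, markers of acinar cells, and only 0.176% of its RPKM in hormones. Its Krt7 was 0.139 RPKM. Islet cell 380, at 36.3 RPKM, had Krt7 at 340 RPKM and no duct marker above 1.06 RPKM, and islet cell 356, at 56.2 RPKM, had 56.4% of its RPKM in mitochondrial genes.

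Taking the keratins cell by cell, most insulin cells held all of Krt7, Krt8 and Krt18. At 1 RPKM this was true of 269 of 384, or 70.1% (65.2 to 74.6), while 52 held Krt7 with Krt18 alone, 22 Krt7 with Krt8 and 16 Krt8 with Krt18. A single keratin was held by 8 cells for Krt7, 3 for Krt8 and 8 for Krt18, and 6 cells held none. Krt8 and Krt18 were found together in 285 cells, or 74.2%, and the product of their separate shares is 72.5%. Krt7 and Krt18 were together in 321 cells, 83.6% against a product of 82.1%. At 10 RPKM all 3 were present in 151 insulin cells, 39.3%, but in 4 of 32 glucagon cells, 12.5% (3.51 to 29.0). This contrast came from the unrounded columns, with 44.4% of insulin cells and 0 of 17 glucagon cells, while the rounded columns had 32.3% and 26.7%. In glucagon cells at 1 RPKM all 3 were present in 18, 56.2%, and none in 3. At that level the order differed between the sets, with 41.2% of glucagon and 76.2% of insulin cells in the unrounded columns but 73.3% and 61.5% in the rounded ones.

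The levels of the keratins hardly followed each other. In the unrounded and rounded insulin cells, Spearman's rho was 0.14 and 0.16 for Krt8 with Krt18, 0.12 and 0.14 for Krt7 with Krt18, and 0.08 and 0.03 for Krt7 with Krt8. These are correlations across cells of 1 sample that share depth and capture conditions, and values this small are no finding. For comparison, the rho of each of these keratins with the number of detected genes lay between 0.09 and 0.23. Ranked among 3817 genes found in 50% or more of insulin cells, Krt18 was number 61 in likeness to Krt8, and Krt8 was number 164 in likeness to Krt18. The median rho of all these genes with Krt8 was 0.05.

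**Figure D3:**
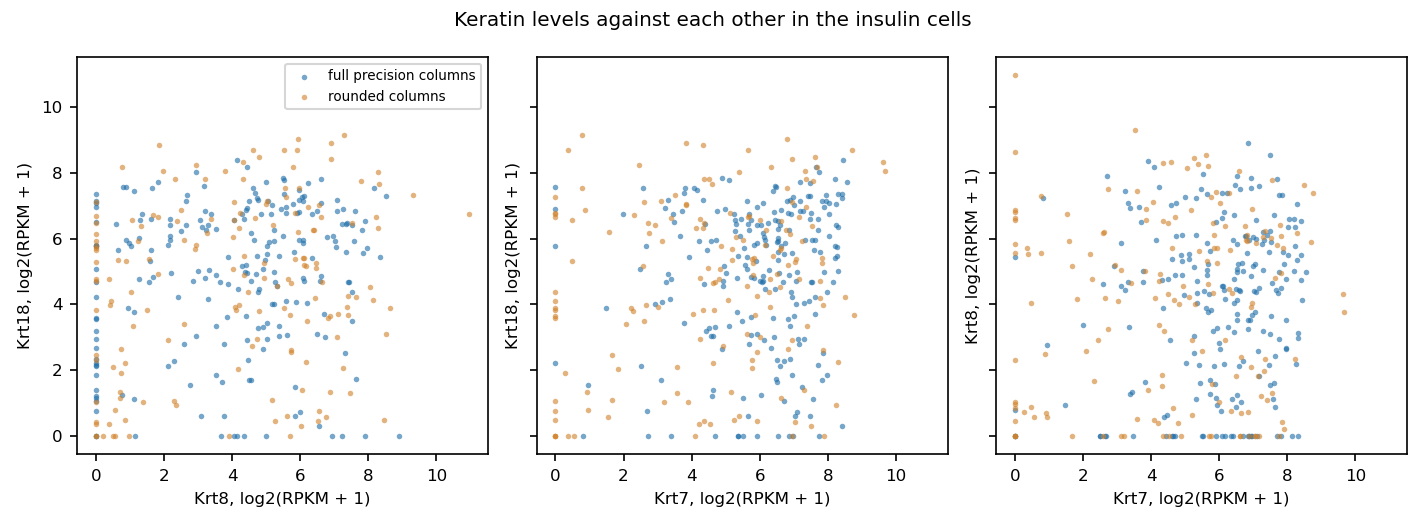
Krt8 against Krt18, Krt7 against Krt18 and Krt7 against Krt8 in the 384 insulin cells, each as log2(RPKM + 1), with unrounded columns in blue and rounded columns in orange. The points fill the panels with no narrow band, and cells at 0 for one keratin run along the axis at all levels of the other.

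Type II RNA outweighed type I RNA in insulin cells. The mean of Krt7 plus Krt8 was 148 RPKM and that of Krt18 plus Krt19 was 69.1 RPKM, a ratio of 2.14, with 2.40 in the unrounded and 1.85 in the rounded columns. In glucagon cells the ratio of means was 1.08, in somatostatin cells 0.981, in PP cells 1.06 and in mixed cells 1.73. Among the 369 insulin cells with at least 10 RPKM of keratin in sum, type II chains made up a median of 74.9% (quartiles 51.7 and 92.8). They made up more than 90% in 108 of these cells, 29.3%, and less than 10% in 15. The share per cell went the other way from the ratio of means in glucagon cells, where 26 cells had a median of 86.0% type II and 46.2% of them had more than 90%. Krt7 alone made up a median of 42.2% of the keratin RPKM of a cell in insulin, 30.1% in mixed, 28.8% in Tyrobp and 15.3% in glucagon cells. In the rounded columns these medians were 30.9%, 26.3%, 28.8% and 13.5%. The summed keratin level had a median of 166 RPKM in insulin cells, 88.9 in glucagon cells, 303 in somatostatin cells and 163 in mixed cells.

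How many genes a cell showed moved with whether a keratin was found in it. A split by detected genes raises the share of a typical gene by construction, so part of this was fixed in advance. The same shares over all genes were not computed. From the fourth of insulin cells with the fewest detected genes to the fourth with the most, Krt8 went from 71.4% to 91.1% of unrounded cells and from 63.4% to 87.5% of rounded cells. Krt18 went from 83.9% to 98.2% and from 75.6% to 97.5%, and Krt7 from 91.1% to 100% and from 65.9% to 92.5%. Krt7 was found in 65.0% of the fourth of rounded insulin cells with the highest insulin RPKM and in 80.5% to 95.0% of the others. The unrounded columns did not show this, with 94.6% against 96.4% to 100%. The part of library quality in these shares was not tested.

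**Figure D4:**
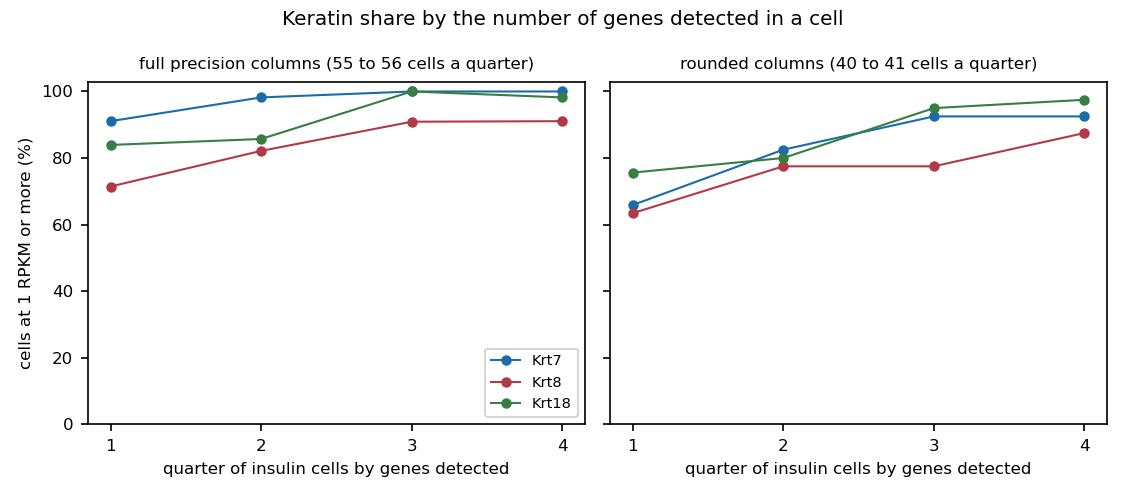
Share of insulin cells at 1 RPKM or more (y axis, percent) for Krt7, Krt8 and Krt18, in cells split into 4 equal groups by the number of genes detected (x axis, from fewest to most), with unrounded columns on the left and rounded columns on the right. In both sets the lowest group has the lowest share of each keratin, from 63.4% to 91.1%.

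Most of the other keratin genes counted here were at 0 or rare. Of 47 further genes named Krt with a number, 28 were at 0 in every cell. Keratin symbols with a letter after the number were not counted. In 10% or more of insulin cells 3 of the 47 reached 1 RPKM, Krt8-ps among them. At that cut-off, 11193 of the 44448 genes in the table were kept for the ranking by likeness. The share of all genes at 0 in every cell was not computed. Krt10, a type I keratin of the upper epidermis, was the most frequent, at 1 RPKM in 123 insulin cells, 32.0%, and in 10 glucagon cells, 31.2%. Krt222, a keratin-related gene, reached 1 RPKM in 43 insulin cells, 11.2%, and Krt1, a type II keratin of the epidermis, in 4 of 32 glucagon cells and 8 insulin cells. The genes beside the members were quiet too: Krt78, whose annotation ends 87 bases from that of Krt8, reached 1 RPKM in 1 insulin cell. Krt87, next to Krt7, did so in 10. Krt13, Krt15, Krt9 and Krt14, which flank Krt19, were at 0 in insulin cells. Eif4b, a translation initiation factor on the far side of Krt18, was at 1 RPKM in 70.1% of insulin cells.

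Genes whose level across insulin cells was most like that of a keratin were ranked by the mean of Spearman's rho in the 2 column sets. For Krt7 the list was led by Cd63, a tetraspanin of late endosomes and secretory vesicles, with a mean rho of 0.37 (0.32 and 0.43 in the sets). After it came Aldoa, the glycolytic enzyme aldolase, with 0.29, Acly, ATP citrate lyase, with 0.27, Dynlt1b, a dynein light chain, with 0.27, and the predicted gene Gm13430 with 0.26. Krt18 was most like Erp29, a chaperone of the endoplasmic reticulum, with 0.26, Sec61a1, the protein channel of that compartment, with 0.25, and the mannose 6-phosphate receptor gene M6pr with 0.24. Alkbh6 followed with 0.24 and Mrps12, a protein of the mitochondrial ribosome, with 0.23. Among these genes found in 50% or more of insulin cells the highest values for Krt8 were lower, 0.25 for Gm15793, 0.21 for Rpl30-ps8, 0.20 for Ftl2-ps, 0.20 for Snrnp200, a helicase of the spliceosome, and 0.20 for Fam20c, a kinase of the secretory pathway. The highest for Krt19, Txn1, Eif2s1, Eif2a, Ssr1 and Lars, lay between 0.13 and 0.14 and rest on 3 cells. With genes found in 10% or more of insulin cells, Krt8-ps, whose reads may be those of Krt8, came first for Krt8 with a mean rho of 0.56 (0.46 and 0.65). Apart from Cd63 and Krt8-ps these values are weak, and they describe 223 and 161 cells of 1 sample that share depth.

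Of 15 genes of desmosomes and plakins, which include anchors of keratin filaments, 10 reached 1 RPKM in 10% or more of insulin cells. At the same cut-off, 11193 of the 44448 genes in the table were kept for the ranking by likeness. The list was led by Pkp4 with a mean of 21.9 RPKM, Dst with 9.96, Dsp with 7.68, Dsg2 with 6.96 and Macf1 with 6.44. Of the 6 with a mean of 5 RPKM in either class, 1 was at least 2-fold lower in glucagon cells, beside 21.5% of all genes compared: Dsp, desmoplakin, which binds keratin to the desmosome, with 1.20 RPKM and a log2 ratio of -1.98 (-2.95 and -1.26 in the sets). Jup, plakoglobin, had a log2 ratio of 0.58. The median of the 6 was -0.24, against -0.14 over all genes compared.

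Of 20 genes of epithelial adhesion and identity, 18 reached 1 RPKM in 10% or more of insulin cells. That cut-off kept 11193 of the 44448 genes in the table for the ranking by likeness. The highest means were 95.5 RPKM for Spint2 and 42.4 for Spint1, inhibitors of surface proteases, 41.2 for the adhesion protein gene Cdh1, 40.6 for Epcam and 27.9 for Cldn7, a claudin of tight junctions. Of 13 compared, 5 were at least 2-fold lower in glucagon cells and 0 higher, beside 21.5% and 11.6% of all genes compared, with a median log2 ratio of -0.71. The lowest were Cldn3 with -2.62, Marveld3 with -2.22 and Esrp1, an epithelial splicing factor, with -1.91, followed by Spint1 and Cdh1, each with -1.19.

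Of 14 genes of other intermediate filaments, 4 were compared, too few to set against a share. In glucagon cells 2 were at least 2-fold lower and 1 higher, beside 21.5% and 11.6% of all genes compared. Lmna, a nuclear lamin, had a mean of 28.4 RPKM in insulin cells and a log2 ratio of 0.19 whose sign differed between the sets (-1.45 and 1.33). Vim, the filament of connective tissue and blood cells, reached 1 RPKM in 4.69% of insulin cells and had a log2 ratio of -1.02. Nefm, a neurofilament, was higher in glucagon cells, with 22.7 against 2.85 RPKM and a log2 ratio of 2.62, and Ina, a neuronal filament, was lower with -2.04. Of 6 keratin-binding or keratin-cleaving proteins compared, 3 were at least 2-fold higher in glucagon cells, where 11.6% of all genes compared were. They included Casp6, a caspase that cleaves Krt18, with a log2 ratio of 1.52 and the chaperone gene Dnajb6 with 1.35, while Ywhaz, a 14-3-3 protein with a mean of 181 RPKM in insulin cells, had -0.83.

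Of 16 transcription factors known at keratin genes, 12 were compared and 4 were at least 2-fold higher in glucagon cells, with 0 lower, beside 11.6% and 21.5% of all genes compared, and a median log2 ratio of 0.22. Fos, part of AP-1, was the highest in insulin cells with a mean of 441 RPKM, and its log2 ratio was -0.60. Klf4 had a log2 ratio of 2.91, Ehf 2.02, Fosb 1.34 and Jun 1.27, and the sign of Fosb differed between the sets (-2.03 and 1.66). The ratios of Klf4, Ehf and Jun were positive in both sets.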

How the data were processed

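The authors deposited 1 table of RPKM values for 622 single cells, 1 column per cell. Per the submitters' processing notes, CASAVA 1.8.2, FastQC and the build GRCm38 (mm10) were used, while aligner, counter and annotation remain not given in the sources used here. RefSeq symbols matched 39725 of 44448 gene IDs. The members and gene lists were chosen with earlier results of these data known. Values were used as deposited, and classes were compared by log2((mean + 1) / (mean + 1)) of RPKM with no test, since all cells are 1 sample. Whole reads, recovered from RPKM steps and ratios between cells, served for depth and thinning, with 8 of 622 cells under 250000 reads. The lengths of 7 mitochondrial genes set the scale of the gene lengths behind the reads given for 1 RPKM. Tested on simulated data, the recovery found 13657 of 16753 units, with 99.8% of counts right. No unit was recovered for Krt19. RPKM depends on the share of hormone RNA in a cell, so it was also rescaled without it.

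Named genes were the members, the 5 most like each, other keratins at 1 RPKM in 10% of a class, neighbours on the chromosome and, from each list, the 5 of highest mean in insulin cells with up to 4 of the largest ratios each way. Alternatives varied the cell filter, hormone share, columns, scaling, thinning, mitochondrial share, detection level, pseudocount and use of medians. Promoters came from a RefSeq table for GRCm38.p6, with no entry used for Krt19. Python 3.11.15 with NumPy, pandas and SciPy was used. Some genes of the lists are not reported here.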

Additional observations from a re-analysis of the deposited data

Results flagged for a closer look

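Among the 10 PP cells, the highest Krt8, 327.9 RPKM in islet cell 21, stood apart from the next, 143 RPKM, by a gap of 0.562 of the range of the class, over the limit of 0.466 for 10 cells (Dixon's test). The highest Krt19 of that class, 56.2 RPKM in islet cell 356, stood apart in the same way from 0.317 RPKM (0.994 of the range). Chance puts about 1 in 20 groups past this limit only where values are normal, and these are skewed values of cells of 1 sample, with Krt19 at 0 in 8 of the 10, so passing it carries little weight. Islet cell 21 drew 62.0% of its RPKM from hormones and also had Krt18 at 304 RPKM.

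Krt7 was also seen in the cells below the gene filter, which enter only the values computed with no cell filter. Of the 29 cells with fewer than 1000 detected genes, 9 had Krt7 at 1 RPKM or more, a share of 31.0% (exact 95% interval 15.3 to 50.8). Their median mitochondrial share was 89.7% of RPKM. In 8 of the 9, Krt7 was below 10 RPKM. The other, islet cell 470, had 217 RPKM from 2452 reads in all and Tyrobp at 714 RPKM. Krt8 reached 1 RPKM in 1 of the 29 cells, Krt18 in 3 and Krt19 in 0.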

How the results depend on the processing

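Of 48 shares of insulin cells recomputed, 35 stayed inside the 95% interval of the main share, all 11 of Krt19 among them. The Krt7 share was 88.0% with no cell filter, 94.6% with at least 3000 genes, 97.3% and 83.2% in unrounded and rounded columns, 87.2% at 5 RPKM and 94.8% at any value above 0. The Krt8 share was 76.4% with no cell filter, 76.4% in rounded columns, 68.5% at 5 RPKM and 87.8% above 0. The Krt18 share was 85.5% with no filter, 79.4% at 5 RPKM and 94.8% above 0. Of 37 log2 ratios of glucagon over insulin cells, 31 kept their sign and lay within 1.5-fold of the main ratio. Medians in place of means gave -2.79 for Krt7, -1.55 for Krt8 and -2.15 for Krt18. The Krt18 ratio changed sign in rounded columns (0.0679), with at most 20% mitochondrial RPKM (0.0122) and rescaled without hormone genes (0.0698), and the cause was not tested. Ratios of Krt19 were not computed, since glucagon cells are at 0, and it was not thinned. The lists of genes most like a keratin shared 1 or 0 of 5 genes with unrounded columns alone, 0 to 3 with rounded columns alone and 2 or 3 with Pearson's r. With genes found in 10% of cells they shared 5 for Krt7, 4 for Krt8, 3 for Krt18 and 0 for Krt19. Coefficients of variation by column set and without the highest cell were added after seeing the data. A leading hormone of at least 10000 RPKM and the sum of Krt8 with its pseudogene were added then too and left every share and ratio within these limits. With 10 to 32 cells, the shares in the glucagon, somatostatin, PP and Tyrobp cells have wide intervals. No paired analysis was possible because all cells are 1 sample.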

Other observations

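The 139 mixed cells, in which no hormone reached 90%, differed in Krt7 by the hormones they combined, and some of these groups also parted by column set. In 23 cells led by insulin and PP, Krt7 ran from 1.69 to 453 RPKM with a median of 63.6, and all 23 reached 1 RPKM. In 63 cells led by glucagon and insulin the median was 31.7 RPKM and 56 reached 1 RPKM, between the medians of the glucagon cells and the insulin cells. In 28 cells led by insulin and somatostatin the median was 54.2 RPKM, with 61.9 in 19 unrounded and 25.5 in 9 rounded cells. In the 8 cells led by PP and glucagon the median was 38.0 RPKM, with 3 cells at 100 RPKM or more. That value described neither set, with medians of 108 RPKM in 3 unrounded and 4.075 in 5 rounded cells. The 1 cell led by glucagon and somatostatin had 23.9 RPKM. In the 16 cells led by PP and somatostatin, the median of Krt7 was 2.58 RPKM and 8 reached 1 RPKM, but it was 25.9 RPKM in 6 unrounded and 0 in 10 rounded columns. Krt18 was not low in these 16 cells, with a median of 49.0 RPKM and 15 at 1 RPKM, and the highest Krt18 of all cells, 1305 RPKM, was among them. Krt8 had a median of 18.2 RPKM there and a highest value of 1042. These groups were formed after the data were seen and no difference between them was tested.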
